A study of Mus musculus with 52 samples.

Results

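The 10 mouse osteosarcomas with the highest expression of osteoclast genes were compared with the 10 with the lowest. Osteosarcoma is a tumour of bone-forming cells, and a piece of such a tumour also holds host cells, osteoclasts among them. Members were chosen by an osteoclast score, the mean of log2(CPM + 1) of 5 genes (Acp5, Ctsk, Dcstamp, Ocstamp and Atp6v0d2). CPM is a gene's count scaled by the library's total. Below, this CPM is given for these 5 genes, Col1a1, Xist and Ddx3y, and CPM of other genes uses TMM-corrected totals. Of 52 libraries in the series, 34 carry no R1002- prefix in their column name. Of these, 31 passed a limit of 13 log2(CPM + 1) for Col1a1, the main collagen chain of bone, and 3 did not. The 10 highest of the 31 scores are called osteoclast-rich and the 10 lowest osteoclast-poor, which leaves 11 tumours in between.

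The study sequenced stranded mRNA libraries of primary murine osteosarcomas, 1 for each tumour, to compare p53 genotypes. Tumours carried R172H or R245W, missense alleles of Trp53, over a floxed allele (p53R172H/fl and p53R245W/fl), or 2 floxed alleles and no missense allele (p53fl/fl). A floxed allele is removed where Cre recombinase is active, and a floxed Trp53 allele is shared by all the groups. No source used here states the Cre driver, the tumour site or the age of the animals. The osteoclast-rich group holds 4 p53R245W/fl, 3 p53R172H/fl and 3 p53fl/fl tumours, and the osteoclast-poor group holds 1 p53R245W/fl, 6 p53R172H/fl and 3 p53fl/fl tumours. Genotype was therefore a covariate in the fit. No label gives an osteoclast count, so the groups rest on RNA alone, and fewer osteoclasts in a tumour cannot be told apart from less of these RNAs per osteoclast.

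Osteoclasts are large multinucleated cells that form by fusion of precursors of the monocyte lineage and that resorb bone. Csf1 and RANK ligand (Tnfsf11), made by osteoblast-lineage cells among others, drive their formation through the receptors Csf1r and RANK (Tnfrsf11a), and osteoprotegerin (Tnfrsf11b) is a soluble decoy that binds RANK ligand. Signals from RANK and from ITAM-bearing adaptors converge on the transcription factor Nfatc1. A mature osteoclast seals itself to bone by an actin ring, acidifies the space beneath it with a vacuolar proton pump and a chloride channel, and digests the matrix with cathepsin K (Ctsk) and other proteases. In osteosarcoma, as in other bone tumours, osteoclasts sit beside tumour cells that can themselves make RANK ligand.

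The score was 8.19 at the lowest, 8.41 at the median and 9.34 at the highest in osteoclast-rich tumours, against 3.04, 4.73 and 5.31 in osteoclast-poor tumours. The lowest osteoclast-rich score, 8.19, lay next to a score of 8.17 in the tumour just outside. The highest osteoclast-poor score of 5.31 lay below 5.89, the lowest of the tumours in between. The upper edge thus cuts a continuous run of scores. The step at the lower edge is larger, but wider steps lie on both sides of it. These run from 3.35 to 4.51 within the osteoclast-poor group and from 5.89 to 6.69 among the tumours in between. The values that made the score are given as a description. Acp5, the tartrate-resistant acid phosphatase, had 994 to 3453 CPM (median 2185) in osteoclast-rich tumours and 23.9 to 276 CPM (median 95.01) in osteoclast-poor tumours. Ctsk had 1961 to 3690 CPM (median 2684) in osteoclast-rich tumours and 46.1 to 806 CPM (median 297) in osteoclast-poor tumours. Dcstamp and Ocstamp, membrane proteins needed for precursor fusion, and Atp6v0d2, a pump subunit, were set apart likewise by the choice of tumours. The medians were 66.9 against 2.76 CPM for Dcstamp, 62.6 against 3.25 CPM for Ocstamp, and 254 against 16.5 CPM for Atp6v0d2. None of the 5 genes was at 0 in an osteoclast-poor tumour.

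**Figure D1:**
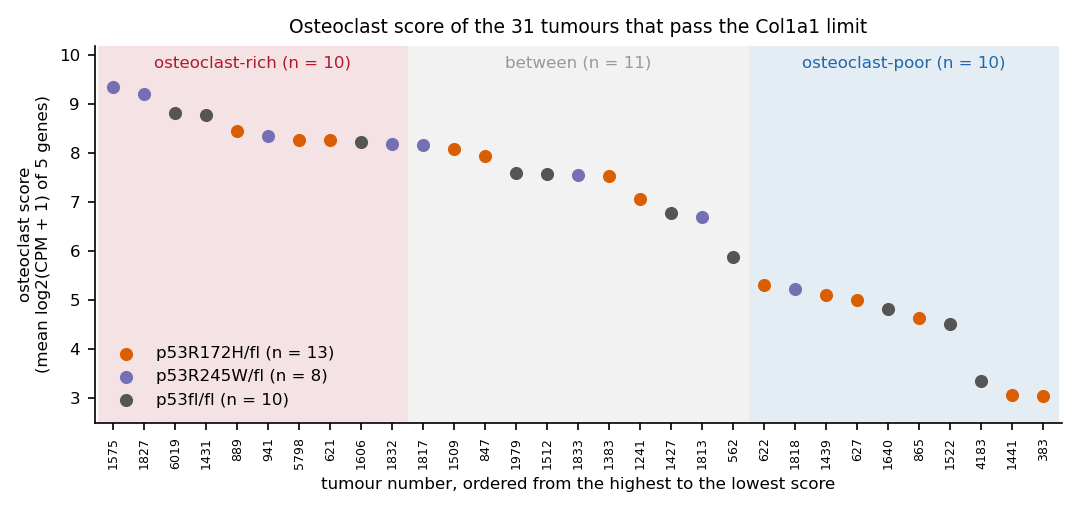
Osteoclast score (vertical axis, mean log2(CPM + 1) of 5 genes) of the 31 tumours, ordered from the highest to the lowest and coloured by genotype, with the 10 osteoclast-rich, 11 intermediate and 10 osteoclast-poor tumours shaded. The osteoclast-rich scores run from 9.34 down to 8.19 and the osteoclast-poor ones from 5.31 down to 3.04.

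Library totals of the 20 tumours were between 36606728 and 60336397 counts. Median totals were 52869290.5 in osteoclast-rich and 47851752.5 in osteoclast-poor tumours. The share of counts from mitochondrial genes had medians of 2.39% and 2.18%, and Col1a1 had medians of 15.1 and 15.3 log2(CPM + 1), in osteoclast-rich and osteoclast-poor tumours. The limit on Col1a1 bounds these Col1a1 levels from below. The prefix of the column names splits the libraries into the set with the prefix R553- (6 osteoclast-rich and 4 osteoclast-poor) and a set with the prefixes FM, FNM, WFM or WFNM (4 osteoclast-rich and 6 osteoclast-poor). All p53R245W/fl tumours of the 20 are in the R553- set, so set and genotype are partly confounded. The column names also hold a label such as L004. That label marks 4 osteoclast-rich tumours, all p53R245W/fl, and no osteoclast-poor one. No source used here states what the prefixes or this label stand for. In 3 of the 20 libraries RNA of both Xist, made by female cells, and Ddx3y, a Y-linked gene, was above 10 CPM. All 3 are osteoclast-poor tumours, and without them 354 genes were called instead of 404. Trp53 itself had 11.9 to 52.3 CPM (median 31.7) in osteoclast-rich tumours and 8.82 to 50.6 CPM (median 35.9) in osteoclast-poor tumours. Its groups overlapped throughout, and the log2 fold change was 0.10 ± 0.19 (SE), with an adjusted p of 0.911. Deletion of the floxed allele cannot be read from this value.

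Promoter sequences are shown for 2 genes of the score, Ctsk and Acp5, and for 2 genes outside it. They come from RefSeq for the GRCm38.p6 build and cover 250 bases before to 50 after an annotated start. CACGTG, bound by the Mitf and Tfe3 family, TGANTCA, bound by Fos and Jun proteins, and GAGGAA, bound by PU.1 (Spi1), were searched on both strands. The promoter of Ctsk is at chr3:95498960-95499259 on the + strand. That of Acp5, at its most downstream annotated start, is at chr9:22130549-22130848 on the - strand. Rufy4, which had the smallest p of all tested genes, has its promoter at chr1:74125291-74125590 on the + strand. Atp6v1a, the catalytic subunit of the proton pump, has its promoter at chr16:44139210-44139509 on the - strand and is shown as a V-ATPase gene with CACGTG. Capitals mark the motifs.
Ctsk: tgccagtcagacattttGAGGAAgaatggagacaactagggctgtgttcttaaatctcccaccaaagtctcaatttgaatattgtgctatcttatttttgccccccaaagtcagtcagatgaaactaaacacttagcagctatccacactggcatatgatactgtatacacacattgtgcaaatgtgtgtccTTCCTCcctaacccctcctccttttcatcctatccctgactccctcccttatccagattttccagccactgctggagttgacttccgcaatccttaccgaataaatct
Acp5: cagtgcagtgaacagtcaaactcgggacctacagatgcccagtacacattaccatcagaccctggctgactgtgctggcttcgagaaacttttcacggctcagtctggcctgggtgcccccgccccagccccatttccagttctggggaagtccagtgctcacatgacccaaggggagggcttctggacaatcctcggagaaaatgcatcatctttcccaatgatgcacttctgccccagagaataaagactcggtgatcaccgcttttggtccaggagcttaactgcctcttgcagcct
Rufy4: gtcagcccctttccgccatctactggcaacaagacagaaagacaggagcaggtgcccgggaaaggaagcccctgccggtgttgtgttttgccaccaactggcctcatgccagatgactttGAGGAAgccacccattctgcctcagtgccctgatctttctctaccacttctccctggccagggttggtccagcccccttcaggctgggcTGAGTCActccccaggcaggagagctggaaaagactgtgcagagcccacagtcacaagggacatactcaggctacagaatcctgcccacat
Atp6v1a: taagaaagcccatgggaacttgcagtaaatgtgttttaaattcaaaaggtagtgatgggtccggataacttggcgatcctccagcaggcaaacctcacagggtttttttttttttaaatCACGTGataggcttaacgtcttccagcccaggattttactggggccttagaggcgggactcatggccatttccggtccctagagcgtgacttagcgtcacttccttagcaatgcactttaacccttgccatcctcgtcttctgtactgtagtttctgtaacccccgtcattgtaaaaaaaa
Ctsk held GAGGAA at 2 places, Rufy4 held TGANTCA and GAGGAA, Atp6v1a held CACGTG, and the Acp5 window held none of the letters. Over all 32851 RefSeq promoters, 7.15% held CACGTG, 7.81% held TGANTCA and 28.3% held GAGGAA. Of the 22 mature osteoclast genes that rose, 17 matched, with 27 promoters: 1 held CACGTG, 3 held TGANTCA and 9 held GAGGAA. Of the 10 V-ATPase genes that rose, 8 matched, with 10 promoters, of which 3 held CACGTG, 0 held TGANTCA and 2 held GAGGAA. Of the 348 genes called higher, 252 matched, and of their 335 promoters 8.96% held CACGTG, 9.55% held TGANTCA and 25.7% held GAGGAA. Over the promoters of all tested genes the shares were 9.48%, 5.45% and 27.1%. The shares of CACGTG and GAGGAA among genes called higher were thus close to those of tested genes, and that of TGANTCA was higher. No difference between these shares was tested.

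Across the whole table of 17437 tested genes, with the 5 score genes left out, 404 were called (2.32%). Calls were made by edgeR's quasi-likelihood test at an adjusted p (Benjamini-Hochberg over all tested genes) under 0.05. Of these, 348 (2.0% of tested genes) were higher and 56 (0.321%) were lower in osteoclast-rich tumours. The rises were larger than the falls, with a median log2 fold change of 1.46 among genes called higher and -1.23 among those called lower. In 139 genes (0.797%) every osteoclast-rich tumour lay above every osteoclast-poor one, and no gene showed the opposite. The median log2 fold change over all tested genes was -0.03, and 46.3% of the genes had a positive one. These genes were not chosen by the rule, but RNA of the same cells supplies both them and the score, so an osteoclast gene that rises is a check of the label and no independent finding.

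Osteoclast effector genes outside the score were higher together in osteoclast-rich tumours. Of 26 mature osteoclast genes tested, 22 were called higher and 0 lower, against 2.0% of all genes, and the median log2 fold change was 1.71, against -0.03. In 15 of the 26 the groups did not overlap, against 0.797% of all genes. Mmp9, the gelatinase of osteoclasts, had 2171 to 6637 CPM (median 3680) in osteoclast-rich tumours and 49.0 to 541 CPM (median 290) in osteoclast-poor tumours. No osteoclast-poor tumour reached the osteoclast-rich range, and the log2 fold change was 3.78 ± 0.33 (adjusted p = 8.48e-07). Calcr, the receptor through which calcitonin halts resorption, had 14.05 to 51.8 CPM (median 31.3) in osteoclast-rich tumours, against 0.0230 to 1.83 CPM (median 0.452) in osteoclast-poor tumours. The groups stood apart, with a log2 fold change of 5.67 ± 0.56 (adjusted p = 3.69e-06), the largest in the list. Siglec15, a sialic-acid-binding receptor of osteoclasts, had 9.94 to 37.5 CPM (median 20.4) in osteoclast-rich tumours and 0 to 1.71 CPM (median 0.825) in osteoclast-poor tumours, with no overlap, and its log2 fold change was 4.62 ± 0.57 (adjusted p = 3.60e-05).

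Genes of acid secretion and ion transport were among these. Slc9b2, a sodium/hydrogen exchanger, had 102 to 164 CPM (median 131) in osteoclast-rich tumours and 1.38 to 16.2 CPM (median 9.33) in osteoclast-poor tumours. This was a narrow range in the osteoclast-rich group and a wide one in the osteoclast-poor group, without overlap, and the log2 fold change was 3.92 ± 0.41 (adjusted p = 5.84e-06). Car2, the carbonic anhydrase that supplies protons, had 44.7 to 150 CPM (median 65.0) in osteoclast-rich tumours and 1.34 to 41.6 CPM (median 5.63) in osteoclast-poor tumours, with a log2 fold change of 3.37 ± 0.59 (adjusted p = 0.00204). Clcn7, the chloride-proton exchanger of the resorbing membrane, rose by less, at 113 to 181 CPM (median 134) in osteoclast-rich tumours against 53.2 to 100 CPM (median 70.9) in osteoclast-poor tumours (log2 fold change 0.93 ± 0.14, adjusted p = 0.000419). Slc4a2, the chloride/bicarbonate exchanger, had 1.14 ± 0.16 (adjusted p = 0.000131). Ostm1, the partner protein of Clcn7, was not called (0.49 ± 0.25, adjusted p = 0.447). The ranges of Ostm1 overlapped, at 28.5 to 77.4 CPM in osteoclast-rich and 13.1 to 88.7 CPM in osteoclast-poor tumours. The 88.7 CPM was in tumour 1818, the 1 osteoclast-poor p53R245W/fl tumour. Within genotypes the log2 difference of Ostm1 was 0.70 in p53fl/fl, 0.90 in p53R172H/fl and -0.84 in p53R245W/fl tumours. Fits that left out 1 tumour gave 0.26 to 0.86, and Ostm1 was called in 0 of 20.

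Genes of vesicle traffic and of attachment moved the same way. Rufy4, a protein of autophagy and lysosome positioning, had 16.4 to 30.7 CPM (median 26.4) in osteoclast-rich tumours and 1.03 to 3.65 CPM (median 2.51) in osteoclast-poor tumours. No osteoclast-poor tumour came near the lowest osteoclast-rich one, and the log2 fold change was 3.44 ± 0.24 (adjusted p = 5.95e-08). Slc37a2, a sugar-phosphate transporter of osteoclast lysosomes, had 288 to 590 CPM (median 363) in osteoclast-rich tumours and 19.9 to 88.3 CPM (median 46.2) in osteoclast-poor tumours, a log2 fold change of 2.99 ± 0.27 (adjusted p = 1.15e-06). Snx10, a sorting nexin needed for resorption, had 2.04 ± 0.21 (adjusted p = 4.16e-06), and Plekhm1, a lysosomal adaptor, 0.94 ± 0.14 (adjusted p = 0.000336). Itgb3, the β3 integrin that binds osteoclasts to bone, had 81.8 to 313 CPM (median 246) in osteoclast-rich tumours and 36.5 to 142 CPM (median 59.2) in osteoclast-poor tumours. Its groups overlapped, with 7 of 10 osteoclast-rich tumours above all osteoclast-poor ones, and the log2 fold change was 1.66 ± 0.29 (adjusted p = 0.00177).

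The remaining members that rose were Mst1r, a receptor tyrosine kinase (4.49 ± 0.42), Akap6, an anchoring protein (2.23 ± 0.34), Ckb, the brain-type creatine kinase (2.06 ± 0.36), Jdp2, a transcription factor of the AP-1 group (1.75 ± 0.20), Strip2 (1.53 ± 0.35) and Src, the kinase that shapes the ruffled border (1.25 ± 0.19). Oscar, Tcirg1, Nfatc1 and Tnfrsf11a belong to the list too and are described below. The 4 members that were not called were Ostm1, Mmp14, Cd109 and Pstpip2. Mmp14, a membrane protease that bone-forming cells also make, had 513 to 1418 CPM (median 622) in osteoclast-rich tumours and 231 to 1202 CPM (median 796) in osteoclast-poor tumours. Its log2 fold change was 0.02 ± 0.24 (adjusted p = 0.991).

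**Figure D2:**
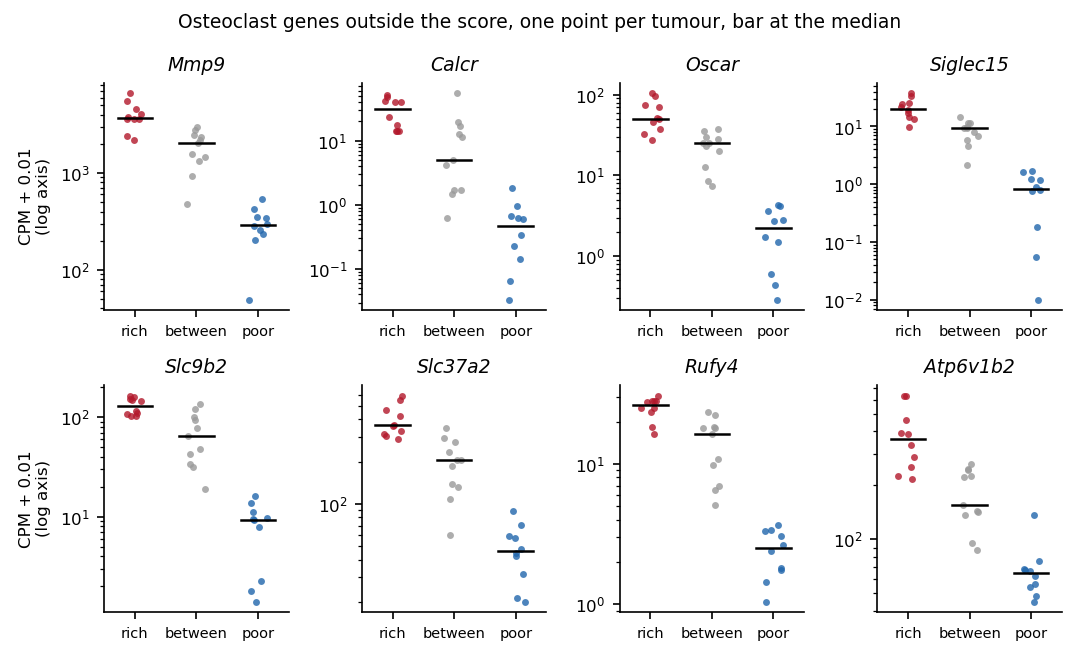
CPM plus 0.01 on a log axis for 8 genes outside the score in osteoclast-rich, intermediate and osteoclast-poor tumours, with 1 point per tumour and a bar at each median. In each panel the osteoclast-rich points lie above all the osteoclast-poor points, and the medians of the 11 intermediate tumours lie between.

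The vacuolar ATPase pumps protons into lysosomes in every cell and into the resorption space in osteoclasts, which add osteoclast-rich isoforms to the common subunits. Of 20 V-ATPase genes tested, 10 were called higher and 0 lower, against 2.0% and 0.321% of all genes, with a median log2 fold change of 0.80. Atp6v1b2, a nucleotide-binding subunit of the cytosolic part, had 216 to 632 CPM (median 361) in osteoclast-rich tumours and 44.7 to 136 CPM (median 64.7) in osteoclast-poor tumours. The groups did not overlap and the log2 fold change was 2.28 ± 0.19 (adjusted p = 8.47e-07). Atp6v1a had 266 to 546 CPM (median 377) in osteoclast-rich tumours and 80.5 to 186 CPM (median 124) in osteoclast-poor tumours, again apart, with a log2 fold change of 1.55 ± 0.16 (adjusted p = 3.4e-06). Atp6v1d (1.34 ± 0.15), Atp6v1e1 (1.29 ± 0.18), Atp6v1c1 (0.996 ± 0.18) and Atp6v0b (0.99 ± 0.18) were called as well.

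The membrane subunit a is encoded by several genes, and their values differed. Tcirg1, the a3 isoform of osteoclasts, had 232 to 377 CPM (median 294) in osteoclast-rich tumours and 69.0 to 256 CPM (median 106) in osteoclast-poor tumours. Its log2 fold change was 1.35 ± 0.22 (adjusted p = 0.000593), with 7 of 10 osteoclast-rich tumours above all osteoclast-poor ones. The a1 isoform Atp6v0a1 had 35.8 to 67.9 CPM (median 49.2) in osteoclast-rich tumours and 53.2 to 79.8 CPM (median 62.1) in osteoclast-poor tumours, and the a2 isoform Atp6v0a2 had medians of 104 and 102 CPM. Neither was called (log2 fold changes of -0.31 ± 0.14 and -0.19 ± 0.16, adjusted p = 0.345 and 0.731). Atp6v0d1, the widely expressed counterpart of the score gene Atp6v0d2, had medians of 57.7 CPM in osteoclast-rich and 50.9 CPM in osteoclast-poor tumours and a log2 fold change of -0.03 ± 0.17 (adjusted p = 0.976). Differences between isoforms were not themselves tested.

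Of 22 general lysosomal genes tested, 4 were called higher and 1 lower, against 2.0% and 0.321% of all genes, with a median log2 fold change of 0.21. Hexa, a hexosaminidase subunit, had 313 to 607 CPM (median 431) in osteoclast-rich tumours and 77.1 to 433 CPM (median 175) in osteoclast-poor tumours. Its groups overlapped, with 5 of 10 osteoclast-rich tumours above all osteoclast-poor ones, and the log2 fold change was 1.01 ± 0.23 (adjusted p = 0.0193). Npc2, a cholesterol carrier, rose too (0.92 ± 0.16). Lgmn, an asparaginyl protease abundant in macrophages, was lower, at 159 to 311 CPM (median 236) in osteoclast-rich tumours and 256 to 579 CPM (median 362) in osteoclast-poor tumours. Its groups overlapped, the log2 fold change was -0.65 ± 0.16 (adjusted p = 0.0333), and the call held in 10 of 20 fits that each left out 1 tumour.

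Of the signals that form osteoclasts, RANK ligand differed most plainly between the groups. Tnfsf11 had 17.3 to 40.98 CPM (median 29.4) in osteoclast-rich tumours and 2.61 to 12.2 CPM (median 6.42) in osteoclast-poor tumours. Every osteoclast-rich tumour was above every osteoclast-poor one, and the log2 fold change was 2.10 ± 0.29 (adjusted p = 0.000114). Within genotypes the median was 34.1 CPM in 4 osteoclast-rich tumours against 4.08 CPM in 1 osteoclast-poor tumour for p53R245W/fl, 20.5 CPM in 3 against 7.55 CPM in 6 for p53R172H/fl, and 25.1 CPM in 3 against 5.31 CPM in 3 for p53fl/fl. The 11 tumours in between had a median of 12.5 CPM. Among those 11 the slope on the score, scaled to the difference between the group means, was 0.22 on the log2 scale for Tnfsf11 (unadjusted p = 0.721), so no relation of the ligand to the score was detectable within these 11 tumours.

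Tnfrsf11b, the decoy receptor, had 6.90 to 66.5 CPM (median 32.7) in osteoclast-rich tumours and 11.5 to 1031 CPM (median 79.6) in osteoclast-poor tumours. No osteoclast-rich tumour reached the osteoclast-poor median, but 5 of the 10 osteoclast-poor tumours lay inside the osteoclast-rich range. The log2 fold change was -2.11 ± 0.76 and did not pass (adjusted p = 0.207). Without the osteoclast-poor p53R172H/fl tumour 383, which held the 1031 CPM, it was -1.18. A slope over all 31 tumours gave -2.33 for the same score difference, with an adjusted p of 0.00384. The count of Tnfsf11 over that of Tnfrsf11b, a ratio comparable only between tumours because the transcripts differ in length, was 0.449 to 4.46 (median 1.03) in osteoclast-rich tumours and 0.00509 to 0.793 (median 0.0955) in osteoclast-poor tumours. Only 1 osteoclast-poor tumour, p53R172H/fl tumour 622 at 0.793, lay above the lowest osteoclast-rich value.

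Of the receptors, Tnfrsf11a had 55.0 to 117 CPM (median 88.0) in osteoclast-rich tumours and 8.54 to 51.6 CPM (median 25.2) in osteoclast-poor tumours, without overlap, and the log2 fold change was 1.59 ± 0.26 (adjusted p = 0.000634). Csf1r, which marks macrophages as well as osteoclasts, had 372 to 643 CPM (median 507) in osteoclast-rich tumours and 99.2 to 572 CPM (median 241) in osteoclast-poor tumours. With 2 of 10 osteoclast-rich tumours above all osteoclast-poor ones, its log2 fold change of 0.96 ± 0.26 just missed the threshold (adjusted p = 0.0535, and 0.0146 by DESeq2), and it was called in 2 of 20 fits that left out 1 tumour. Its ligands were not called. Csf1 had medians of 270 CPM in osteoclast-rich and 173 CPM in osteoclast-poor tumours (0.42 ± 0.34, adjusted p = 0.716), and Il34 had medians of 2.72 and 2.26 CPM (0.29 ± 0.40, adjusted p = 0.876).

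Across the list of 25 tested osteoclast signals and receptors, 4 were called higher and 0 lower, against 2.0% and 0.321% of all genes, and the median log2 fold change was 0.13. Besides Tnfsf11 and Tnfrsf11a these were 2 chemokines. Ccl9, which osteoclasts secrete and which attracts their precursors, had 43.7 to 302 CPM (median 155) in osteoclast-rich tumours and 5.77 to 56.0 CPM (median 33.1) in osteoclast-poor tumours, with 2.02 ± 0.36 (adjusted p = 0.00213). Cxcl12, the chemokine that holds blood-forming cells in marrow, had 34.5 to 524 CPM (median 86.0) in osteoclast-rich tumours and 13.7 to 63.9 CPM (median 23.8) in osteoclast-poor tumours, with 2.42 ± 0.50 (adjusted p = 0.00846). In both genes the ranges touched, with 9 and 7 of the 10 osteoclast-rich tumours above all osteoclast-poor ones.

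**Figure D3:**
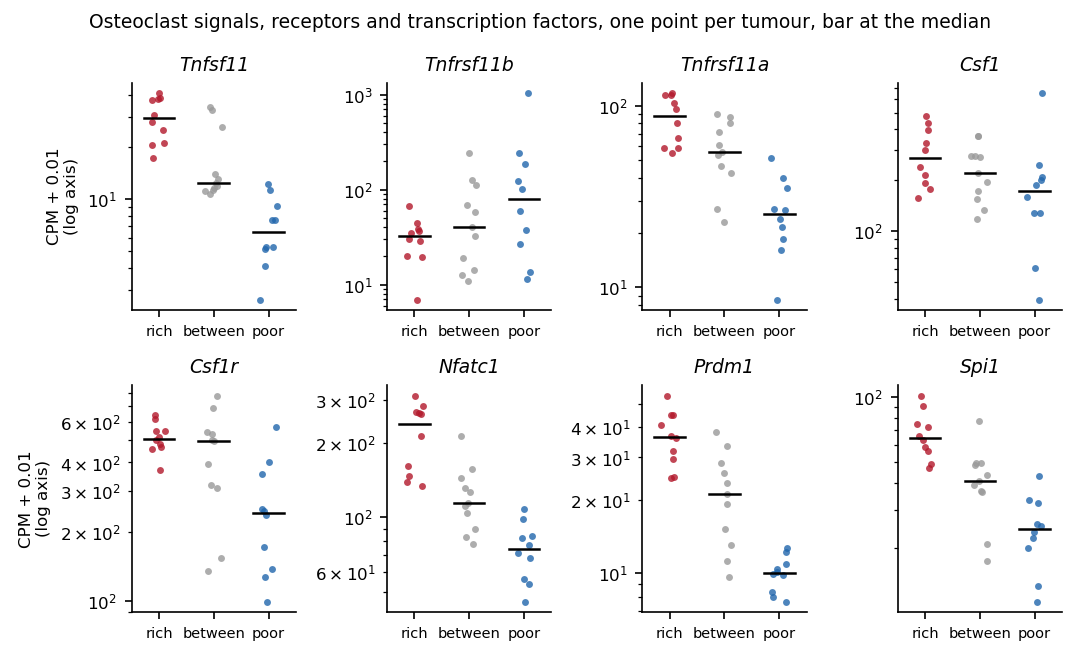
CPM plus 0.01 on a log axis for ligands, receptors and transcription factors of osteoclast formation in osteoclast-rich, intermediate and osteoclast-poor tumours, with 1 point per tumour and a bar at the median. Tnfsf11 has medians of 29.4 and 6.42 CPM in osteoclast-rich and osteoclast-poor tumours without overlap, whereas Tnfrsf11b, Csf1 and Csf1r overlap.

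Costimulation of RANK runs through adaptors with ITAM motifs and the receptors that pair with them, and this list split in direction. Of 17 tested genes, 4 were called higher and 2 lower, against 2.0% and 0.321% of all genes, with a median log2 fold change of 0.03. Oscar, a collagen-binding receptor of osteoclasts, had 27.8 to 104 CPM (median 50.7) in osteoclast-rich tumours and 0.277 to 4.25 CPM (median 2.22) in osteoclast-poor tumours, and the groups stood far apart (4.68 ± 0.50, adjusted p = 7.46e-06). Tyrobp, the adaptor DAP12, had 117 to 215 CPM (median 146) in osteoclast-rich tumours and 20.5 to 103 CPM (median 64.7) in osteoclast-poor tumours, without overlap (1.16 ± 0.23, adjusted p = 0.00649). The downstream adaptor Lcp2 (1.12 ± 0.22, adjusted p = 0.00523) and the kinase Syk (0.86 ± 0.21, adjusted p = 0.0259) also rose, the call of Syk holding in 15 of 20 fits that left out 1 tumour. Fcgr3, an IgG Fc receptor, was lower, at 22.5 to 51.2 CPM (median 31.8) in osteoclast-rich tumours and 29.3 to 155 CPM (median 72.5) in osteoclast-poor tumours (-1.07 ± 0.25, adjusted p = 0.0194). Sirpb1a, one of several closely similar receptor genes whose reads may be shared, was lower too (-1.37 ± 0.36, adjusted p = 0.0449), a call that held in 5 of 20 fits that left out 1 tumour. Trem2, a partner of Tyrobp, was not called (-0.86 ± 0.24, adjusted p = 0.0632).

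Of 26 transcription factors and repressors of osteoclast formation, 6 were called higher and 0 lower, against 2.0% and 0.321% of all genes, with a median log2 fold change of 0.21. Prdm1, the repressor Blimp1 that silences inhibitors of osteoclast genes, had 24.6 to 54.0 CPM (median 36.5) in osteoclast-rich tumours and 7.59 to 12.6 CPM (median 10.02) in osteoclast-poor tumours. The osteoclast-poor values were tightly bunched and the groups did not overlap (1.84 ± 0.16, adjusted p = 8.48e-07). Nfatc1, the master regulator, had 134 to 311 CPM (median 238) in osteoclast-rich tumours and 45.3 to 108 CPM (median 74.3) in osteoclast-poor tumours, also apart (1.59 ± 0.20, adjusted p = 3.51e-05). Spi1, the factor PU.1 of the myeloid lineage, had 46.6 to 101 CPM (median 64.6) in osteoclast-rich tumours and 11.2 to 42.9 CPM (median 24.5) in osteoclast-poor tumours (1.33 ± 0.22, adjusted p = 0.000915). Ppargc1b, a coactivator of mitochondrial biogenesis (1.66 ± 0.30), Tfec, of the Mitf family (1.22 ± 0.29), and Fosl2, of the AP-1 group (0.93 ± 0.19), were the other 3. The call of Tfec held in 15 of 20 fits that left out 1 tumour.

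Actin ring genes gave 6 called higher and 0 lower of 22 tested, against 2.0% and 0.321% of all genes, with a median log2 fold change of 0.28. Rac2, a GTPase of blood cells, had 62.1 to 145 CPM (median 88.2) in osteoclast-rich tumours and 9.94 to 32.6 CPM (median 22.3) in osteoclast-poor tumours (2.01 ± 0.24, adjusted p = 1.87e-05). Dock5, an activator of Rac in osteoclasts, had 70.5 to 220 CPM (median 119) in osteoclast-rich tumours and 15.6 to 45.3 CPM (median 29.9) in osteoclast-poor tumours (2.08 ± 0.26, adjusted p = 2.89e-05). Neither gene's groups overlapped. Src and Itgb3, given above, Itgav, the αv partner of β3 (0.81 ± 0.17), and Pxn, the adhesion adaptor paxillin (0.77 ± 0.15), completed the 6. Among 13 factors by which osteoclasts act on osteoblasts, 2 were called, both higher, against 2.0% of all genes. Sema4d, a semaphorin that restrains osteoblasts, had 78.0 to 174 CPM (median 114) in osteoclast-rich tumours and 24.8 to 64.7 CPM (median 37.1) in osteoclast-poor tumours (1.63 ± 0.20, adjusted p = 3.60e-05). Pdgfb, a growth factor for vessel-lining and mesenchymal cells, had 0.87 ± 0.19 (adjusted p = 0.0142).

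Besides Calcr, the largest rises were in genes of varied function. Ckmt1, a mitochondrial creatine kinase, had 0.357 to 7.07 CPM (median 3.01) in osteoclast-rich tumours and 0 to 0.0995 CPM (median 0.00863) in osteoclast-poor tumours. The groups did not overlap, and its log2 fold change of 7.14 ± 0.86 (adjusted p = 2.46e-05) rests on almost no reads in the osteoclast-poor group. Mt3, a metallothionein, had 15.9 to 59.1 CPM (median 26.5) in osteoclast-rich tumours and 0 to 3.20 CPM (median 1.06) in osteoclast-poor tumours (4.86 ± 0.58, adjusted p = 2.68e-05). Corin, a membrane serine protease that activates natriuretic peptides in the heart, had 2.005 to 12.4 CPM (median 8.01) in osteoclast-rich tumours and 0 to 0.617 CPM (median 0.100) in osteoclast-poor tumours (4.97 ± 0.58, adjusted p = 1.58e-05). Pls1, an actin bundler (5.23 ± 0.71), Pate4, a small secreted protein (5.22 ± 0.77), Mapk4, an atypical MAP kinase (5.04 ± 0.78), and Htr1b, a serotonin receptor (5.01 ± 0.63), were the other large rises. All 4 were under 1 CPM in every osteoclast-poor tumour. Among the smallest p-values were also Pip5k1b, a lipid kinase (3.85 ± 0.31, adjusted p = 7.30e-07), and Abcb4, a phospholipid transporter (3.02 ± 0.25, adjusted p = 7.99e-07).

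Of 30 respiratory chain genes tested, 1 was called higher, against 2.0% of all genes. This was Sdha, the catalytic subunit of succinate dehydrogenase, at 161 to 272 CPM (median 204) in osteoclast-rich tumours and 81.3 to 148 CPM (median 90.1) in osteoclast-poor tumours (1.06 ± 0.14, adjusted p = 0.000101). All 30 had a positive log2 fold change, against 46.3% of all genes, with a median of 0.37, and 11 had an unadjusted p under 0.05, against 12.3% of all genes.

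No tested gene on the lists of osteoblasts passed the test in these 20 tumours. The Col1a1 limit had removed p53R245W/fl tumours 1831, 1580 and 1835. Their scores were 2.81, 3.50 and 3.71, all under the highest osteoclast-poor score of 5.31. Levels of osteoblast genes in the osteoclast-poor group are therefore partly set by the rule. Of 26 genes of osteoblasts and mineralising matrix 0 were called, against 2.32% of all genes. At an unadjusted p under 0.05 there were 0, against 12.3% of all genes, and the median log2 fold change was -0.15. Of 16 osteoblast transcription factors 0 were called, also with 0 at an unadjusted p under 0.05 and with a median of -0.28. DESeq2 and limma voom also called 0 genes of either list. Runx2, the factor that starts the osteoblast lineage, had 134 to 250 CPM (median 175) in osteoclast-rich tumours and 141 to 294 CPM (median 221) in osteoclast-poor tumours (-0.22 ± 0.17, adjusted p = 0.711). Sp7 (osterix) had medians of 177 and 225 CPM, Alpl (alkaline phosphatase) 730 and 957 CPM, and Ibsp (bone sialoprotein) 2571 and 1597 CPM in osteoclast-rich and osteoclast-poor tumours. Bglap (osteocalcin) had 3.96 to 444 CPM (median 46.6) in osteoclast-rich tumours and 2.496 to 116 CPM (median 14.5) in osteoclast-poor tumours, a wide spread in both (1.65 ± 0.87, adjusted p = 0.472). Its log2 fold change was 0.70 without osteoclast-rich tumour 6019 and 2.63 without osteoclast-poor tumour 1818, and it was not called in either fit. Runx2, Sp7, Alpl, Ibsp and Bglap had reads in all 20 tumours. Capg, an actin-capping protein and the 1 called of 10 osteocyte genes, against 2.0% of all genes called higher, is also made by macrophages (0.87 ± 0.18, adjusted p = 0.00917).

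Macrophages share a precursor with osteoclasts, and most of their markers had negative fold changes. Of 20 macrophage genes 1 was called higher and 1 lower, against 2.0% and 0.321% of all genes. DESeq2 called 2 higher and 4 lower, against 2.98% and 1.26% of all its genes. The median log2 fold change was -0.65, 3 were positive, and 13 had an unadjusted p under 0.05, against 12.3% of all genes. The summed level of the list was 2056 to 3629 CPM (median 2463) in osteoclast-rich tumours and 1546 to 6440 CPM (median 3486) in osteoclast-poor tumours. Cd68, a lysosomal protein that osteoclasts make as well, was the one that rose, at 153 to 313 CPM (median 210) in osteoclast-rich tumours and 31.6 to 177 CPM (median 80.5) in osteoclast-poor tumours (1.39 ± 0.24, adjusted p = 0.0012). Fcgr1, the high-affinity IgG receptor, fell, at 6.06 to 11.6 CPM (median 9.07) in osteoclast-rich tumours and 6.26 to 50.3 CPM (median 22.1) in osteoclast-poor tumours (-1.48 ± 0.29, adjusted p = 0.00469). Adgre1 (F4/80; -0.94 ± 0.25, adjusted p = 0.0563) and C1qb of complement (-0.86 ± 0.23, adjusted p = 0.0547) were not called. With the macrophage list's mean as a further covariate, 22 of the 26 mature osteoclast genes were called higher, against 2.17% of all genes, and Csf1r had 1.51 (adjusted p = 1.73e-05).

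The 8 largest falls were small in level. Cntfr, the receptor for ciliary neurotrophic factor, had 0.100 to 1.12 CPM (median 0.384) in osteoclast-rich tumours and 0.531 to 8.95 CPM (median 3.85) in osteoclast-poor tumours. All 10 osteoclast-rich tumours were below the osteoclast-poor median, and the log2 fold change was -3.36 ± 0.60 (adjusted p = 0.00184). Mmp12, the macrophage elastase, had 0.940 to 8.12 CPM (median 3.61) in osteoclast-rich tumours and 3.24 to 31.1 CPM (median 13.7) in osteoclast-poor tumours (-2.03 ± 0.47, adjusted p = 0.02). Ccl4, a chemokine of activated macrophages (-2.44 ± 0.61, adjusted p = 0.036), Lvrn, an aminopeptidase (-2.31 ± 0.40, adjusted p = 0.00155), Hs3st3b1, a heparan sulphate sulphotransferase (-2.13 ± 0.53, adjusted p = 0.0352), and Cd200r4, an immune receptor (-1.96 ± 0.42, adjusted p = 0.00984), fell as well. Fits that left out 1 tumour kept Ccl4 in 10 of 20, Hs3st3b1 in 8 of 20, and Cd200r4 in 19 of 20, the exception being osteoclast-poor p53R245W/fl tumour 1818.

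The other 2 were interferon-induced genes. Mx1, an antiviral GTPase, had 1.48 to 5.09 CPM (median 4.12) in osteoclast-rich tumours and 2.76 to 71.8 CPM (median 15.2) in osteoclast-poor tumours (-2.33 ± 0.52, adjusted p = 0.0149). Ifit1bl1, a member of the Ifit family with close copies, had -2.30 ± 0.51 (adjusted p = 0.0139). Of the 20 interferon response genes, Mx1 was the 1 called, against 0.321% of all genes called lower. An unadjusted p under 0.05 was found for 16, against 12.3% of all genes. All 20 log2 fold changes were negative, with a median of -1.68. DESeq2 called 15 of the 20 lower, against 1.26% of all its genes, and limma voom called 1, against 0.35%. The summed level of the list was 164 to 472 CPM (median 288) in osteoclast-rich tumours and 197 to 1995 CPM (median 646) in osteoclast-poor tumours. Ifit1 (-2.18 ± 0.57, adjusted p = 0.0501) and Oas2 (-2.16 ± 0.59, adjusted p = 0.0616) missed the threshold. Within genotypes, the log2 differences of Mx1, Ifit1 and Oas2 were -2.39, -1.71 and -1.84 in p53fl/fl tumours. They were -2.34, -2.65 and -2.19 in p53R172H/fl tumours. In p53R245W/fl they were -0.77, 0.18 and -0.28, from 4 osteoclast-rich tumours and 1 osteoclast-poor tumour.

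Neutrophil genes were high in some osteoclast-rich tumours and not in others. Of 12 tested, 0 were called by edgeR and by limma voom, which called 2.17% of all genes higher. DESeq2 called 4 higher, against 2.98% of all its genes, while 11 had an unadjusted p under 0.05, against 12.3% of all genes, and the median log2 fold change was 3.01. Prtn3, a granule protease (3.18 ± 0.85, adjusted p = 0.0528), had 0.205 to 12.1 CPM (median 0.591) in osteoclast-rich tumours and 0.136 to 1.60 CPM (median 0.330) in osteoclast-poor tumours. Mpo, myeloperoxidase (2.74 ± 0.74, adjusted p = 0.0585), had 1.42 to 51.4 CPM (median 8.17) in osteoclast-rich tumours and 0.630 to 7.04 CPM (median 3.02) in osteoclast-poor tumours. The summed level of the list was 9.34 to 604 CPM (median 25.8) in osteoclast-rich tumours and 10.1 to 70.5 CPM (median 18.6) in osteoclast-poor tumours. These granule genes are those of maturing neutrophils in bone marrow. Their part in the result was not tested beyond a fit with the list's mean as a covariate, which called 354 genes.

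**Figure D4:**
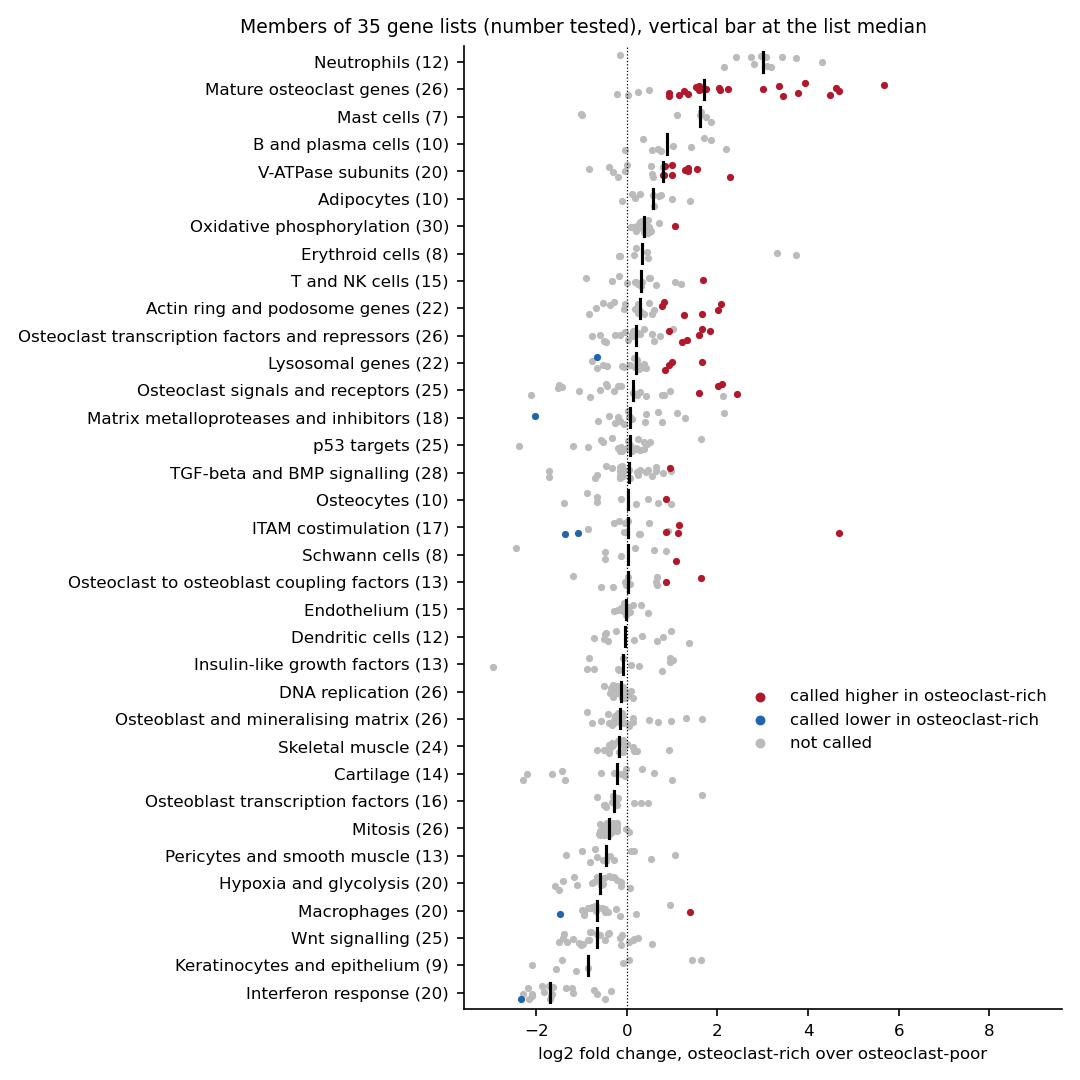
Log2 fold change (osteoclast-rich over osteoclast-poor, horizontal axis) of each tested member of 35 gene lists, ordered by list median, with red points called higher, blue points called lower and grey points not called. The medians are 3.01 for neutrophils, 1.71 for mature osteoclast genes, 0.80 for V-ATPase subunits, -0.65 for macrophages and -1.68 for the interferon response.

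The tumours of the R1002- libraries have other numbers and were not used to choose the members. With the same score, Col1a1 limit and genotype covariate, the 6 highest were compared with the 6 lowest, which called 185 of 17274 genes (1.07%), 174 higher (1.01%) and 11 lower (0.0637%). Tumours 431, 433 and 555 of the highest were p53R245W/fl, and none of the lowest was. With genotype in the fit, the contrast therefore rests on tumours 327, 471 and 472 against the 6 lowest. Of the 348 genes called higher above, 347 were measured there, 344 had a positive log2 fold change, against 48.1% of all genes, and 136 were called higher again. The shared 136 are 39.1% of the 348 and 78.2% of the 174. Of the 56 lower genes all 56 had a negative log2 fold change and 2 were called lower again. Of the mature osteoclast genes 17 of 26 were called higher, with a median log2 fold change of 2.06, and of the V-ATPase genes 7 of 20. Tnfsf11 was called again (1.98, adjusted p = 0.0426), as were Tnfrsf11a (2.08, adjusted p = 0.000932), Csf1r (1.76, adjusted p = 0.00577), Nfatc1 (1.65, adjusted p = 0.00482) and Spi1 (1.72, adjusted p = 0.00224). Tnfrsf11b was not (-2.22, adjusted p = 0.614). Mx1 had -2.16 (adjusted p = 0.0659), Cntfr -4.08 (adjusted p = 0.0831), Fcgr1 -1.003 (adjusted p = 0.388) and Fcgr3 -0.28 (adjusted p = 0.866). The macrophage list had a median of -0.16 and the interferon list, with 20 of 20 negative, -1.61. Of the osteoblast and mineralising matrix genes 1 was called higher there, Bglap (4.25, adjusted p = 0.0327), and of the 12 neutrophil genes 2 were called higher and all 12 were positive, with a median of 3.78.

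**Figure D5:**
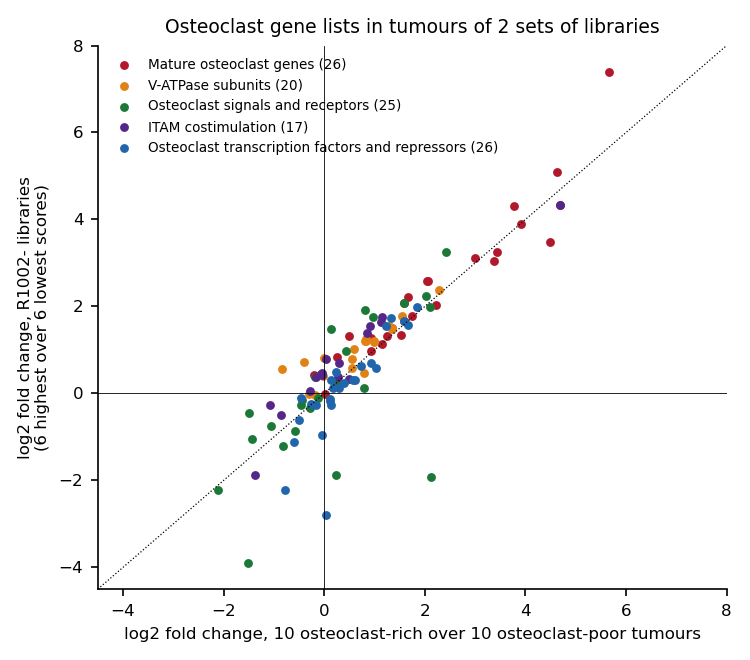
Log2 fold change in the R1002- libraries (vertical axis, 6 highest over 6 lowest scores) against that of the 10 osteoclast-rich over 10 osteoclast-poor tumours (horizontal axis) for the members of 5 lists, with the dotted line at equal values. Mature osteoclast genes lie near the line up to Calcr, at 5.67 and 7.40.

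The 11 tumours between the groups gave a further view. A slope on the score within them called 0 of 19973 genes by edgeR, with 7.96% at an unadjusted p under 0.05. All 26 mature osteoclast genes had a positive slope, against 51.7% of all genes, with a median of 3.14 on the log2 scale for the score difference between the groups. Of the 348 genes called higher, 313 had a positive slope, and of the 56 called lower, 42 had a negative one. Fcgr3 and Lgmn, lower in osteoclast-rich tumours, were among those with a positive slope (0.24 and 1.73).

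Within the 2 sets of libraries, the R553- libraries alone called 78 higher (0.44%) and 13 lower (0.0734%), and the FM, FNM, WFM and WFNM libraries alone called 98 higher (0.529%) and 8 lower (0.0432%). All 348 genes called higher in the whole comparison had a positive fold change in each set, and all 56 called lower a negative one. The 2 sets are parts of the same 20 libraries that gave these calls. The agreement of sign is therefore largely fixed in advance and is no separate check. The median log2 fold change over all genes was -0.021 in the R553- libraries and -0.0087 in the other set. A further test asked whether the osteoclast-rich against osteoclast-poor fold change differed between the sets. It called 0 of 17437 genes, with 719 at an unadjusted p under 0.05. The same test of whether that fold change differed between p53R172H/fl and p53fl/fl tumours called 0 of 18094, with 599 at an unadjusted p under 0.05. For p53R245W/fl there were too few osteoclast-poor tumours for one. The score itself averaged 7.84 ± 1.36 (SD, n = 8) in p53R245W/fl, 6.29 ± 2.01 (n = 13) in p53R172H/fl and 6.63 ± 1.91 (n = 10) in p53fl/fl tumours. The score chose the tumours but genotype did not enter the rule, and no pair passed 2-sided permutation tests adjusted over the 3 pairs. The difference was 1.55 for p53R245W/fl minus p53R172H/fl (exact permutation p = 0.0703, adjusted 0.211). It was 1.21 for p53R245W/fl minus p53fl/fl (exact permutation p = 0.151, adjusted 0.226) and -0.34 for p53R172H/fl minus p53fl/fl (permutation p = 0.681, adjusted 0.681). The Col1a1 limit removed only p53R245W/fl tumours, 3 of low score, so these tests hold only for tumours that pass it. With these 3 included, the difference between p53R245W/fl and p53fl/fl was -0.02.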

How the data were processed

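Bulk RNA of 52 primary mouse osteosarcomas was measured, 1 library per tumour. The authors deposited raw read counts per gene, without normalization, for 20730 genes. Reads were aligned with STAR to GRCm38, per the submitters' processing notes. The counting program and versions are not stated there. The lowest total of any gene was 260, so genes of lower counts are not in the table. RNA came from flash-frozen tumours, per the labels' protocols.

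The members and the gene lists were chosen with earlier results of these data known. Totals of the 20 libraries were 36606728 to 60336397 counts, and p-values measure the spread between tumours. edgeR 4.0.16 (R 4.3.3) fitted genotype and group with TMM library sizes, robust quasi-likelihood F tests, filterByExpr at a minimum count of 10, and Benjamini-Hochberg adjustment at 0.05 over all tested genes. The 5 score genes were removed before the fit. Errors (SE) are approximate standard errors, computed as the size of the log2 fold change divided by the square root of its F statistic. Slopes on the score were scaled to the difference of 4.19 between the mean scores of the groups. DESeq2 1.42.0 and limma 3.58.1 (voom with quality weights) were alternatives, and summaries used Python 3.11.15 and pandas 2.3.3. On simulated data of 17505 genes for the osteoclast-rich against osteoclast-poor comparison, 47% of 100 genes changed 2-fold and 82% of 100 changed 4-fold were recovered, with 5 false calls. The changed genes were drawn from those with a mean of at least 1 CPM. Genes were simulated independently, with no genotype or set effect and no choice of groups by a score, so these figures do not cover such effects.

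Genes are named from those called whose mean over the 20 libraries reached 1 CPM, whose group medians differed by 0.5 or more (log2) in the direction of the fold change, and which have an ordinary gene symbol. From these came 8 rises and 8 falls of greatest size and 5 genes of lowest p. Each list added 4 called members at most, or 2 that were not called. All members of the mature osteoclast, V-ATPase and signal lists could be given. Syk, Sirpb1a, Fosl2, Tfec, Pxn, Itgav, Lgmn, Hexa, Trem2, Adgre1, C1qb, Ifit1, Oas2 and the osteoblast genes were chosen after their values were seen where they fall outside this rule. Some items are not reported here.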

Additional observations from a re-analysis of the deposited data

Results flagged for a closer look

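Single tumours that stood apart from the other 9 of their group, by a gap to the nearest that was above Dixon's critical share of the group's range, were found in 13 of 204 groups of values. Chance gives about 1 in 20 groups. In osteoclast-rich tumours Il34 was 0.310 CPM in tumour 621, against 1.97 to 5.76 CPM in the others. The remaining values are from osteoclast-poor tumours. Tumour 383 was lowest for Snx10, at 21.2 CPM against 38.5 to 52.9 CPM. It was also lowest for Tfec, at 0.722 CPM against 2.44 to 5.36 CPM, and for Mt3, at 0 CPM against 0.277 to 3.20 CPM. The same tumour was highest for Ckmt1, at 0.0995 CPM against 0 to 0.0364 CPM. Tumour 1818 was highest for Atp6v1b2, at 136 CPM against 44.7 to 76.2 CPM. It was highest for Cd200r4, at 8.61 CPM against 0.771 to 2.82 CPM, and lowest for Mmp12, at 3.24 CPM against 11.5 to 31.1 CPM. Tumour 1441 was highest for Ckb, at 494 CPM against 76.7 to 184 CPM, and lowest for Fcgr1, at 6.26 CPM against 17.9 to 50.3 CPM. Mmp9 was 49.0 CPM in tumour 4183, against 202 to 541 CPM. Il34 was 0.652 CPM in tumour 622, against 1.79 to 5.04 CPM. Pxn was 111 CPM in tumour 1522, against 49.8 to 66.6 CPM.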

How the results depend on the processing

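The comparison called 404 genes, 348 higher and 56 lower. DESeq2 called 878, 617 higher and 261 lower. Without the genotype covariate 156 were lower, with 12 against 12 tumours 111, with a slope over all 31 tumours 97, and with a score from TMM library sizes 36. The FM, FNM, WFM and WFNM libraries alone gave 106 (98 higher, 8 lower), the R553- libraries alone 91 (78 and 13), and the R1002- libraries 185 (174 and 11). A slope over the tumours between the groups gave 0 (0 and 0). Without the Col1a1 limit 265 were called (228 and 37). Leaving out each tumour in turn gave 321 to 444 called, 276 to 353 higher and 37 to 93 lower. The lower count was 37 without osteoclast-rich tumour 1431, 92 without osteoclast-poor tumour 1441 and 93 without osteoclast-poor tumour 1818. The cause was not tested.

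Of 76 called genes named or listed, 62 were called in each fit that left out 1 tumour, 14 were lost in at least 1, and 0 changed sign. The losses were of Hexa without osteoclast-rich tumours 621 or 889, Strip2 without 5798 or 889, Mmp12 without 889 and Ifit1bl1 without 5798, and of Fcgr3 and Pdgfb without osteoclast-poor tumour 1818. Those of other genes stand beside their values. The sign turned for Lgmn (1.73), Fcgr3 (0.24) and Lvrn (3.35) in the slope between the groups and for Trac (-0.041) without the Col1a1 limit. The score difference was -0.020 for p53R245W/fl minus p53fl/fl without that limit and 0.28 for p53R172H/fl minus p53fl/fl in the R553- libraries. Alternatives chosen after seeing the data called 354 genes without the 3 libraries holding both Xist and Ddx3y RNA (where Hexa, Fcgr3, Sirpb1a, Tfec, Ccl4 and Mmp12 were not called), 354 with the neutrophil list and 342 with the mitosis list as a covariate. No paired analysis was possible because the numbers in the labels are tumour numbers, which the groups do not share. Genes under a few CPM, such as Ckmt1 and Cntfr, rest on few counts.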

Other observations

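Several further gene groups had values that belong to no comparison above. Of 26 mitosis genes 0 were called by edgeR, DESeq2 or limma voom, with 8 at an unadjusted p under 0.05, against 12.3% of all genes. Their median log2 fold change was -0.39, and 1 of the 26 was positive. Of 20 hypoxia and glycolysis genes 0 were called by edgeR and limma voom and 1 was called lower by DESeq2, with 7 at an unadjusted p under 0.05, against 12.3% of all genes, and a median of -0.58. Their summed level was 1934 to 4651 CPM (median 3169) in osteoclast-rich tumours and 1833 to 6828 CPM (median 3789) in osteoclast-poor tumours. Skeletal muscle genes, which a tumour piece can carry from its surroundings, summed to 438 to 10240 CPM in osteoclast-rich tumours and 373 to 11187 CPM in osteoclast-poor tumours, with 0 of 24 called by edgeR and 0 at an unadjusted p under 0.05.

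Single members of other lists were called. Tgfbr1, a receptor for TGF-beta, had 225 to 432 CPM (median 334) in osteoclast-rich tumours and 87.4 to 242 CPM (median 147) in osteoclast-poor tumours (0.96 ± 0.15, edgeR adjusted p = 0.000364). Mbp, the 1 called of 8 Schwann cell genes, against 2.0% of all genes called higher, had medians of 18.4 and 9.002 CPM in osteoclast-rich and osteoclast-poor tumours (1.09 ± 0.19, edgeR adjusted p = 0.00175). Trac, the constant region of the T cell receptor alpha chain, had medians of 1.52 and 0.491 CPM in osteoclast-rich and osteoclast-poor tumours (1.69 ± 0.43, edgeR adjusted p = 0.039), and its call held in 7 of 20 fits that left out 1 tumour.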
